A study of Bos taurus with 26 samples.

Results

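The endometrium-enriched gene IDs were those abundant in the lining of the cow's uterus and scarce in the corpus luteum of the same study. A gene ID was a member when its mean over the 14 endometrium libraries was at least 30 CPM (the raw count divided by the library's total and multiplied by 1000000) and at least 20 times its mean over the 12 corpus luteum libraries. The rule left out ENSBTAG00000047700. It found 177 members among 24616 IDs in the files, below the limit of 300 at which the list would have been shortened. Because the members were chosen by the contrast between the tissues, that contrast is described here and not tested.

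All cows were Holsteins sampled on day 13 of the oestrous cycle, and they belonged to lines selected for high (Fert+) or low (Fert-) fertility. Endometrium was a biopsy of the ipsilateral uterine horn, with 8 libraries from Fert+ and 6 from Fert-. Corpus luteum biopsies gave 7 libraries from Fert+ and 5 from Fert-. Each library carries a batch label from 1 to 4 and the cow's parity, which was 2, 3 or 4 in every group except Fert- corpus luteum, where it was 3 or 4. The labels name no cow and do not state which libraries came from the same cow. Each combination of line, batch and parity in corpus luteum also occurs in endometrium, so the tissues may share cows. The p-values therefore measure only the spread between these libraries.

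The endometrium is made of a surface epithelium, glands, stroma, vessels and immune cells. In the luteal phase, under progesterone, its glands release proteins and nutrients into the uterine lumen, where they support the early embryo before attachment. The corpus luteum is the gland left in the ovary after ovulation. It holds steroid-producing luteal cells and a dense bed of vessels, and it has no uterine glands. The files pair no ID with a gene symbol, and 0 of the 24616 IDs matched the gene table used here. The members are therefore given by ID, no function is stated for any of them, and the labelled tissues could not be checked against known marker genes.

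Library totals ran from 9627378 to 18008417 counts. At this depth a member had a mean of 396 to 86722 counts per endometrium library, and the lowest count of any member in any endometrium library was 8. Every member had a count in all 14 endometrium libraries. The 76 IDs picked by the mirrored rule for corpus luteum took 0.0596% to 0.0946% of the endometrium counts and 3.67% to 7.83% of the corpus luteum counts.

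An endometrium library spent on average 4.40% ± 2.08 (SD, n = 14) of its counts on the members. For a corpus luteum library the figure was 0.0738% ± 0.0421 (SD, n = 12). Their mean levels in endometrium ran from 30.3 to 7110 CPM, with a median of 80.2 CPM. Of the 177, 77 had a mean of at least 100 CPM and 8 of at least 1000 CPM. The single most abundant member held 16.2% of the summed mean CPM, and 12 members held 50% of it. CPM is not scaled by gene length, so a higher CPM does not by itself mean more transcript molecules of one ID than of another. In these bulk samples, fewer cells of a type and less RNA per cell cannot be told apart.

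ENSBTAG00000031160 had the highest mean, 7110 CPM, and one of the widest ranges. In Fert+ its lowest, median and highest libraries were at 291, 3699 and 51974 CPM, and in Fert- at 258, 2330 and 9911 CPM. The highest value, in Fert+ replicate 1, was far above the next, 11663 CPM in Fert+ replicate 13. Without replicate 1 the mean over the other endometrium libraries was 3659 CPM. The low end was shared by both lines, in Fert+ replicate 10 and Fert- replicate 6.

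ENSBTAG00000004924 followed with a mean of 3531 CPM. Its Fert+ libraries lay between 1235 and 8354 CPM with a median of 4023 CPM, and its Fert- libraries between 306 and 4562 CPM with a median of 2356 CPM. ENSBTAG00000004322, at a mean of 1953 CPM, ran from 149 to 8099 CPM in Fert+ and from 298 to 4527 CPM in Fert-. Both IDs overlapped widely between the lines, and the order of libraries differed between them: Fert+ replicate 13 was highest for the former and Fert+ replicate 1 for the latter.

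Some abundant members were much steadier. ENSBTAG00000019636, at 1350 CPM on average, ran from 608 to 1921 CPM in Fert+ and from 562 to 1807 CPM in Fert-. ENSBTAG00000019125, at 1109 CPM, ran from 490 to 1666 CPM in Fert+ and from 572 to 1752 CPM in Fert-. ENSBTAG00000004796 (1702 CPM) and ENSBTAG00000032902 (1311 CPM) were less steady, running from 393 to 3384 CPM and from 423 to 2351 CPM. Both had their lowest value in the same library, Fert+ replicate 7. The eighth ID of at least 1000 CPM, ENSBTAG00000018531, averaged 1277 CPM and is described with the line comparison.

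**Figure D1:**
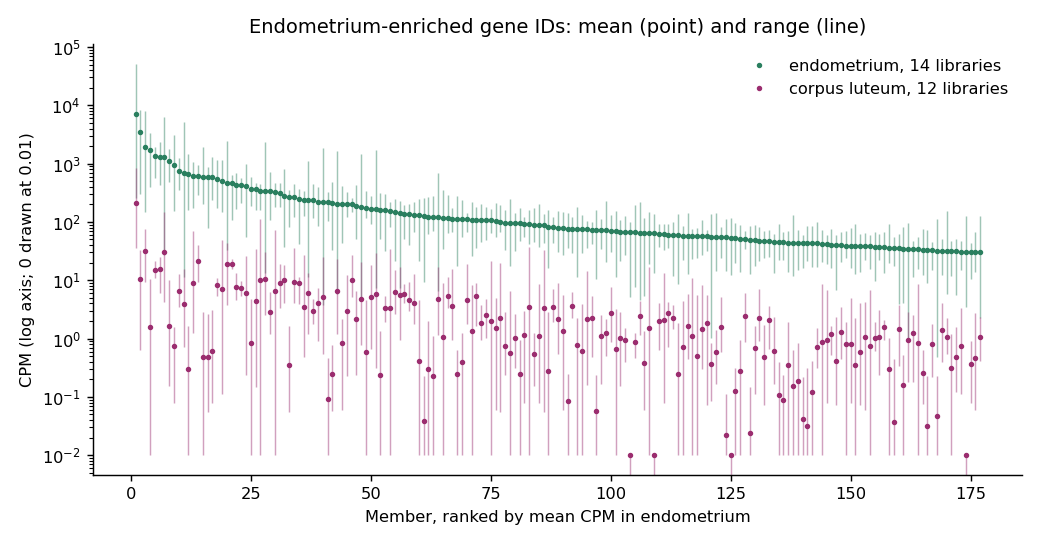
Each of the 177 members is placed by its rank in mean endometrium CPM, with CPM on a log axis; points are means and lines run from the lowest to the highest library of each tissue, with 0 drawn at 0.01. For 163 members the lowest endometrium library lies above the highest corpus luteum library, and for 14 members the ranges overlap.

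The ratio of the endometrium mean to the corpus luteum mean, which the rule used, had a median of 65.1 among the 173 members with a luteal count. It was at least 100 for 61 members and at least 1000 for 15 when 0.01 was added to both means. Just inside the limit of 20 lay ENSBTAG00000013148 (199 against 9.97 CPM, ratio 20.007) and ENSBTAG00000017369 (110 against 5.43 CPM, ratio 20.2). Just outside lay ENSBTAG00000008113 (ratio 19.9) and ENSBTAG00000030650 (ratio 19.7). At the limit on level, ENSBTAG00000011818 (30.3 CPM) and ENSBTAG00000020119 (30.5 CPM) were the lowest kept, and ENSBTAG00000046768 (28.6 CPM) and ENSBTAG00000021444 (28.3 CPM) were the highest left out.

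The most complete contrast was in 4 members with no count in any corpus luteum library, out of 177476604 luteal counts. A count of 0 allows up to 3 counts over the group, or 0.0169 CPM. Against that limit the pooled endometrium level was at least 3865-fold higher for ENSBTAG00000021059, at least 3807-fold higher for ENSBTAG00000045677, at least 3184-fold higher for ENSBTAG00000006655 and at least 1908-fold higher for ENSBTAG00000012461. Their mean levels in endometrium were modest, from 30.8 to 66.2 CPM. ENSBTAG00000012461 ran from 3.47 CPM in Fert+ replicate 7 to 125 CPM in Fert+ replicate 10, so a clean contrast between tissues did not go with an even level within endometrium.

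The remaining 173 members were detectable in corpus luteum at low levels, 117 of them in all 12 libraries. Members took between 0.0328% (Fert+ replicate 24) and 0.162% (Fert- replicate 17) of a luteal library. The number of members without a count ran from 6 in Fert+ replicate 19 to 44 in Fert+ replicate 24. Fert- replicate 17 had the highest luteal value for 70 of the 177 members, or 39.5%, against 16.5% of the 5801 other IDs of at least 30 CPM in endometrium. The 3 members with the highest luteal means were ENSBTAG00000031160 at 212 CPM, ENSBTAG00000004322 at 31.3 CPM and ENSBTAG00000018531 at 30.8 CPM. The first of these alone made up 28.8% of the summed luteal CPM of the members.

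Of the 14 members whose tissue ranges overlapped, 11 belonged to a single group of 12 IDs that varied together across the endometrium libraries, described next. ENSBTAG00000031160 reached 830 CPM in Fert+ corpus luteum replicate 16, above its 258 CPM in Fert- endometrium replicate 6. The overlap came from both sides: libraries of endometrium where the group was low, and libraries of corpus luteum where it was comparatively high.

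**Figure D2:**
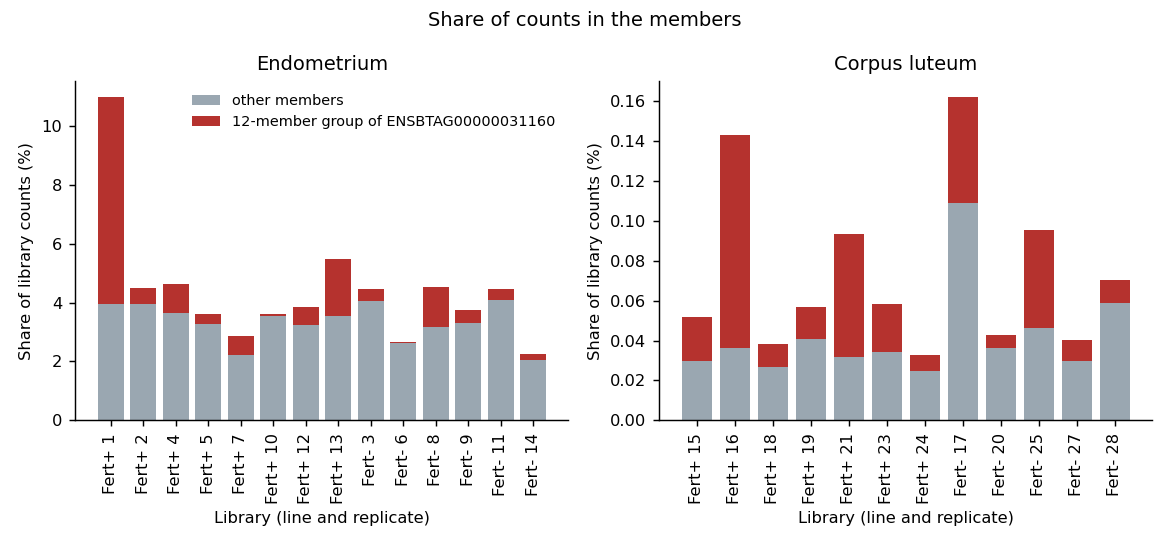
Bars give the share of each library's counts (percent, with a separate scale for each tissue) held by the 12-member group of ENSBTAG00000031160 and by the other 165 members. In endometrium the total runs from 2.25% in Fert- replicate 14 to 10.98% in Fert+ replicate 1, and without the group the highest is 4.10%.

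Members varied more between endometrium libraries than other IDs of similar level. The coefficient of variation (CV, the SD divided by the mean over 14 libraries) had a median of 0.400 among members (quartiles 0.320 and 0.553), against 0.147 among the 5801 other IDs of at least 30 CPM (quartiles 0.110 and 0.214). The ratio of these medians was 2.71, with an error of 0.282 from leaving out libraries (jackknife), and it stayed between 2.65 and 2.95 when each library was left out in turn. Counting error was small beside this, at most 0.0502 as a CV for any member's mean count. As a description of lists chosen from these data, no test was made of the difference. The rule used means, so a single very high endometrium library could bring an ID in, and a wide spread could help an ID qualify. Without Fert+ replicate 1 the mean of ENSBTAG00000031160 was 3659 CPM, less than 20 times its corpus luteum mean of 212 CPM. The part of the rule in the difference was not tested.

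The difference held at each level of abundance. At 30 to 100 CPM the median CV was 0.392 over 100 members and 0.148 over 4013 other IDs. At 100 to 1000 CPM it was 0.429 over 69 members and 0.146 over 1679 other IDs, and from 1000 CPM it was 0.541 over 8 members and 0.137 over 109 other IDs. The highest endometrium library exceeded the lowest by more than 5-fold for 84 members (47.5%) and 258 other IDs (4.45%), and by more than 10-fold for 46 members (26.0%) and 86 other IDs (1.48%).

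The 5 most variable members were ENSBTAG00000039237 (CV 2.67), ENSBTAG00000047177 (2.17), ENSBTAG00000046161 (2.08), ENSBTAG00000048268 (2.08) and ENSBTAG00000008182 (1.98). Fert+ replicate 1 was the highest library for all of these. Without that library all of them except ENSBTAG00000008182 would have had a ratio of means under 20 and would not have been members. ENSBTAG00000039237 stood at 1727 CPM there, with the other Fert+ libraries between 12.5 and 169 CPM and the Fert- libraries between 7.30 and 119 CPM. ENSBTAG00000008182, which is not in the group of ENSBTAG00000031160, stood at 5103 CPM in Fert+ replicate 1, 1812 CPM in Fert- replicate 3 and 793 CPM in Fert+ replicate 10, but at 11.2 CPM in Fert+ replicate 5. ENSBTAG00000004322 had its 3 highest values in the same libraries, at 8099, 4527 and 4145 CPM, and its lowest in the same Fert+ replicate 5, at 149 CPM.

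The 5 steadiest members were ENSBTAG00000013148 (CV 0.157), ENSBTAG00000003027 (0.172), ENSBTAG00000007962 (0.186), ENSBTAG00000006035 (0.192) and ENSBTAG00000000717 (0.197). Each of them was still above the median CV of the other IDs. ENSBTAG00000013148 lay between 146 and 245 CPM in Fert+ and between 166 and 257 CPM in Fert-. ENSBTAG00000003027 lay between 55.1 and 112 CPM in Fert+ and between 80.9 and 120 CPM in Fert-.

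**Figure D3:**
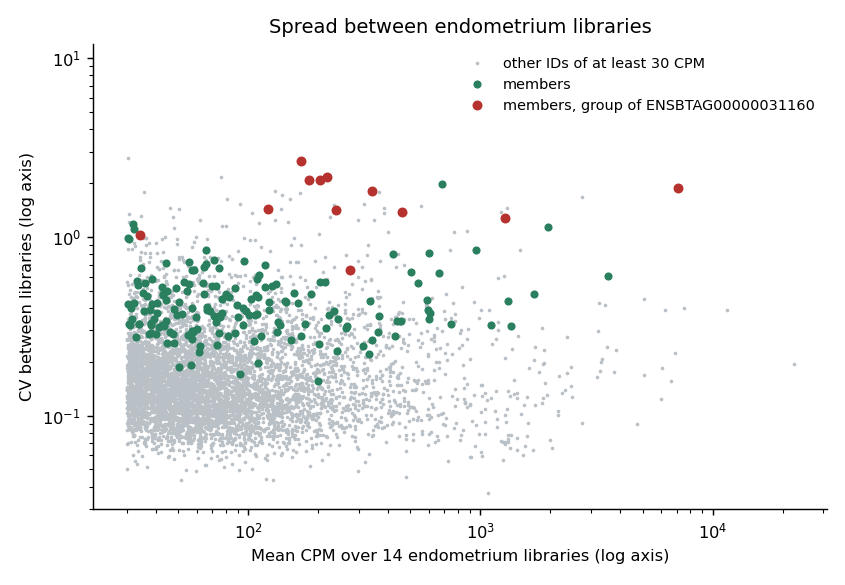
Each point is an ID of at least 30 CPM in endometrium, placed by its mean CPM and its CV over 14 libraries, both on log axes. Members lie towards the upper edge of the cloud (median CV 0.400 against 0.147), and 11 of the 12 IDs in the group of ENSBTAG00000031160 have a CV above 1.

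Extreme values were concentrated in a few libraries. Fert- replicate 14 and Fert+ replicate 7 each held the lowest value for 58 of the 177 members (32.8%), against 10.03% and 9.79% of the other IDs. Fert- replicate 11 held the highest value for 40 members (22.6%), against 5.40% of the other IDs. For other IDs, Fert+ replicate 1 was most often the lowest (33.5%), while it was lowest for 9 members (5.08%). Replicate 14 had the highest endometrium total, 16580572 counts, and the second highest luteal-enriched share, 0.0912%. Replicate 7 had 12405725 counts and a luteal-enriched share of 0.0726%. These ranks used CPM of the library total, so counts taken by members in a library lower the CPM of its other IDs. Members took 10.98% of the counts in Fert+ replicate 1. In Fert+ replicate 13 they took 5.47%, and it was next most often the lowest for other IDs (17.3%). The part of this, of depth or of tissue make-up in these values was not tested.

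Co-variation was measured as Pearson's r between pairs of members over the 14 endometrium libraries, on log2(CPM + 1) after scaling by trimmed mean of M values (TMM), so all pairs share depth, batch and library. Over 15576 pairs of members the median r was 0.21 (quartiles -0.08 and 0.46), against -0.01 (quartiles -0.26 and 0.26) for pairs of the other IDs. Leaving out Fert- replicate 14 lowered the members' median to 0.15. Subtracting each batch's mean lowered it to 0.11. The members were thus not one block: 31.3% of their pairs had an r below 0, and 7.44% had an r above 0.7, against 50.6% and 2.23% of the pairs of other IDs.

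Average linkage of 1 minus r, cut at 0.5, gave 6 groups of at least 10 members, together 145 members, and 15 smaller ones with 32 members. The groups were formed after the values were seen and are described without a test. They are lettered A to F by size, with 45, 33, 24, 21, 12 and 10 members, and each was marked by the libraries where it was low or high. Values for a group are the mean over its members of the log2 deviation from each member's own mean.

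Group A (45 members, median r 0.62 within the group) was lowest in Fert+ replicate 7, at -1.04, and highest in Fert+ replicate 4, at 0.70. Its most abundant ID was ENSBTAG00000004796. Group B (33 members, median r 0.63) was lowest in Fert- replicate 14, at -1.71, and its other libraries lay between -0.70 and 0.50. ENSBTAG00000021119, at 962 CPM, was its most abundant ID. Group C (24 members, median r 0.74), led by ENSBTAG00000004924, was low in Fert- replicate 14, at -1.81, and in Fert+ replicate 10, at -1.04. Group D (21 members, median r 0.71) was led by ENSBTAG00000038532 at 660 CPM. It was lowest in Fert+ replicate 7, at -1.25, and highest in Fert+ replicate 10, at 1.09, where group C was at 0.64 and -1.04. In Fert- replicate 14 group D was at 0.40. Group F (10 members, median r 0.81) was highest in Fert- replicate 11, at 1.13, and its most abundant ID, ENSBTAG00000006069, averaged 118 CPM.

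Group E stood apart by its amplitude. Its 12 members, led by ENSBTAG00000031160 and ENSBTAG00000018531, had a median CV of 1.62, where the medians of the other groups lay between 0.332 and 0.507. The group mean ran from -2.87 in Fert- replicate 6 and -2.60 in Fert+ replicate 10 to 3.56 in Fert+ replicate 1 and 2.06 in Fert+ replicate 13, an 86.4-fold span. Within single members, the highest library exceeded the lowest by 21.5-fold to 479-fold. The group took 7.01% of the counts in Fert+ replicate 1 and 0.0630% in Fert+ replicate 10, and the rest of the endometrium libraries lay between 0.0631% and 1.94%. The low libraries and replicate 13 were of batch 1, and replicate 1 was of batch 4, whose other libraries were at 0.94 (Fert+ replicate 4) and 1.29 (Fert- replicate 8). In the edgeR batch test of single IDs, the lowest adjusted p in the group was 0.285, for ENSBTAG00000048268. With ENSBTAG00000047177, ENSBTAG00000046161, ENSBTAG00000031160 and ENSBTAG00000047986, it had an unadjusted edgeR p between 0.0182 and 0.0389. Of all IDs, 13.2% lay under 0.05 in that test. For the group as a whole, the part of batch in the span was not tested.

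With single libraries left out, the group that holds ENSBTAG00000031160 had between 11 and 13 members, 11 of them without Fert+ replicate 1, where it was highest. Without Fert- replicate 14 it had 20. The highest r of all pairs of members, 0.998 (Spearman's rho 0.991), was between ENSBTAG00000046161 and ENSBTAG00000047177 of this group. The ratio of their CPM lay between 0.734 and 1.16 in every endometrium library, and between 0.613 and 1.43 in every corpus luteum library, where the counts were low. The sources used here do not give how reads shared by near-identical genes were counted, so such pairs may not be independent measurements.

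Members of group E also moved together in corpus luteum, in libraries the grouping did not use. The tissues may share cows, and near-identical genes may share reads, so these libraries may not be an independent check. Over the 12 luteal libraries the median r was 0.70 for the 11 members with a luteal mean of at least 1 CPM. It was 0.68 for 9 such members of group D, 0.46 for 24 of group A, 0.37 for 4 of group F, 0.28 for 16 of group C and 0.07 for 18 of group B, and 0.21 over 4196 pairs in different groups. Group E made up between 14.9% (Fert- replicate 20) and 74.7% (Fert+ replicate 16) of the members' luteal CPM. It took 0.107% of the counts in Fert+ replicate 16, 0.0614% in Fert+ replicate 21, 0.0532% in Fert- replicate 17 and 0.0490% in Fert- replicate 25, and between 0.00637% and 0.0242% in the other 8.

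Without group E the members took 0.0247% to 0.0591% of 11 luteal libraries and 0.109% of Fert- replicate 17. That library and Fert- replicate 28, at 0.0591%, also had the lowest luteal-enriched shares, 4.82% and 3.67%, against 5.6% to 7.83% in the others. Whether the biopsies differed in their cell make-up was not tested.

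**Figure D4:**
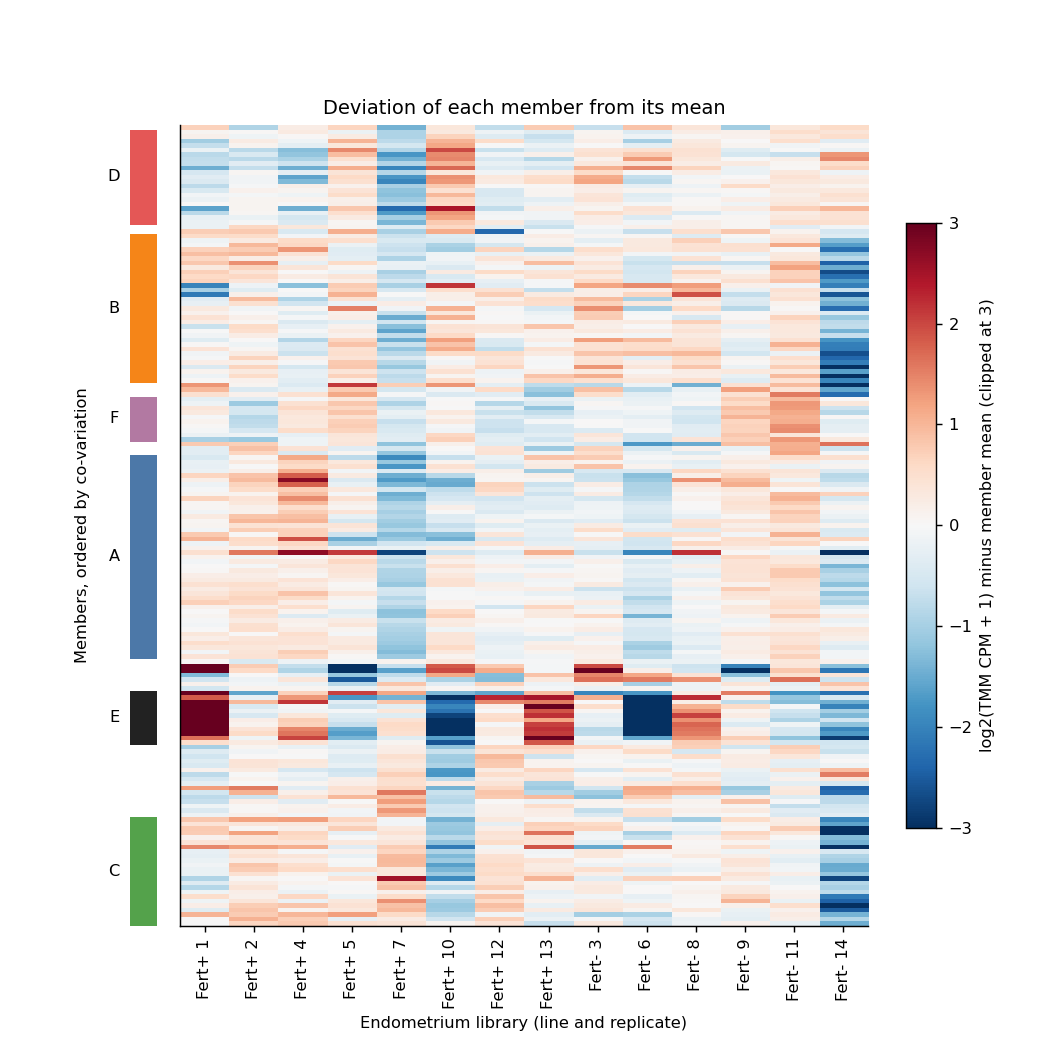
Rows are the 177 members ordered by co-variation, columns the 14 endometrium libraries by line and replicate, and colour the log2(TMM CPM + 1) of a member minus its mean, clipped at 3; the bars at the left mark groups A to F and rows without a bar belong to smaller groups. Group E is dark red in Fert+ replicate 1 and dark blue in Fert+ replicate 10 and Fert- replicate 6, and groups B and C are blue in Fert- replicate 14.

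On average over all members, 2 IDs went most against the rest. The mean r with the other members was lowest for ENSBTAG00000003027, one of the steadiest IDs, at -0.27. It was next lowest for ENSBTAG00000008097, at -0.22, which was highest in Fert- replicate 14 at 142 CPM, with the other Fert- libraries between 41.7 and 69.0 CPM. It was highest for ENSBTAG00000020852, ENSBTAG00000006762 and ENSBTAG00000021566, all of which were lowest in Fert- replicate 14 and, among Fert+ libraries, in replicate 7. The lowest r of any pair, -0.92 (Spearman's rho -0.89), was between ENSBTAG00000003089 and ENSBTAG00000040082. In Fert+ replicate 7 the former was at its lowest, 23.9 CPM, and the latter at its highest, 340 CPM.

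A principal component analysis of the members gave the same picture by library. The first component held 37.6% of their variance and ran from 13.3 in Fert+ replicate 1 to -11.9 in Fert- replicate 14, with Fert+ replicate 10 at -11.5 and Fert- replicate 6 at -10.0. With group E left out the first component held 30.8%, Fert- replicate 14 was at -16.7 and the other 13 libraries lay between -4.14 and 4.94. Lines were mixed along both.

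The line comparison asked whether any of these IDs differed between Fert+ and Fert- endometrium. In the edgeR quasi-likelihood fit with batch as a factor, all 177 members were tested and 0 passed an adjusted p under 0.05, as did 0 of all 14243 IDs (0%). The lowest adjusted p of a member was 0.981. At an unadjusted p under 0.05 there were 8 members (4.52%), against 3.00% of all IDs. In Fert+, 7 of them had the higher estimate and 1 the lower, where the shares over all IDs were 1.65% and 1.36%. No member separated the lines completely (0 in either direction, against 0.00702% and 0.0140% of all IDs).

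The members' estimates were larger than usual but less precise. Members had median values of 0.23 for the absolute log2 fold change and 0.29 for its standard error (SE), where the medians over all IDs were 0.10 and 0.15. An absolute log2 fold change above 1 was found for 16 members (9.04%), against 1.00% of all IDs. Estimates were higher in Fert+ for 105 members (59.3%) and lower for 72 (40.7%), against 50.5% higher and 49.5% lower over all IDs. The count of 105 was 90 with limma-voom and between 92 and 120 when single libraries were left out. DESeq2 and limma-voom also called 0 of 175 and 0 of 177 members, against 8 of 14208 and 0 of 14243 IDs in all. They had 17 and 14 members at an unadjusted p under 0.05, against 566 and 647 IDs in all. In edgeR that number was 13 without Fert- replicate 9, 15 without Fert+ replicate 12 and 22 without Fert+ replicate 10, where the counts over all IDs were 517, 585 and 887.

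ENSBTAG00000003632, of group C, had the smallest p among members estimated higher in Fert+. Its Fert+ libraries had a lowest, median and highest value of 264, 741 and 1138 CPM, and its Fert- libraries of 173, 323 and 569 CPM. The log2 fold change was 1.02 (SE 0.28, edgeR adjusted p = 0.981). Fert+ replicate 10, the lowest of its line, lay within the Fert- range.

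ENSBTAG00000018531, of group E, was next in that direction. It stood at 125, 1488 and 6246 CPM (lowest, median and highest) in Fert+ and at 27.3, 328 and 728 CPM in Fert-, with a log2 fold change of 2.28 (SE 0.72, edgeR adjusted p = 0.981). The lowest library of each line was again Fert+ replicate 10 and Fert- replicate 6, those in which the whole of group E was low.

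In the other direction, ENSBTAG00000022396 stood at 54.3, 204 and 402 CPM in Fert+ and at 195, 843 and 990 CPM in Fert-, with a log2 fold change of -1.72 (SE 0.51, edgeR adjusted p = 0.981). ENSBTAG00000008452 stood at 18.7, 28.7 and 147 CPM in Fert+ and at 54.04, 64.6 and 142 CPM in Fert-, with a log2 fold change of -0.80 (SE 0.39, edgeR adjusted p = 0.981). Its highest library of all was Fert+ replicate 10, without which the log2 fold change was -1.23. In each of these 4 IDs the lines overlapped, and none of the alternatives tried brought an adjusted p under the threshold.

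The estimates followed the co-varying groups more in C to F than in A and B. In groups A and B the signs were mixed, with 31 of 45 and 21 of 33 higher in Fert+ (median log2 fold changes 0.09 and 0.07). Over all IDs 50.5% were higher. In group E all 12 were higher in Fert+ (median log2 fold change 1.25, median SE 0.93), in group C 23 of 24 (0.46, SE 0.30), and in group F 0 of 10 (-0.28, SE 0.34). In group D 19 of 21 were lower in Fert+. Members of a group were put together because they vary together, so such a count is close to a single observation. The group means overlapped between the lines, from -2.60 to 3.56 in Fert+ and from -2.87 to 1.29 in Fert- for group E, and from -1.04 to 0.64 and from -1.81 to 0.24 for group C. Leaving out Fert- replicate 14 reduced the median of group C to 0.20. Its median was 0.28 when Fert+ replicate 7 was left out and 0.30 in limma-voom. For group E it was 0.79, with 10 of 12 higher, without Fert+ replicate 13, and 0.52, with 10 of 12 higher, in limma-voom. For group D it moved from -0.17 to -0.09 without Fert+ replicate 7, with 8 of 21 then higher, to -0.09 without Fert- replicate 8 and to -0.40 without Fert+ replicate 10. The median of group F was -0.08, -0.10 and -0.14 without Fert+ replicates 2 and 12 and Fert- replicate 11, and -0.45, -0.45 and -0.53 without Fert+ replicate 5 and Fert- replicates 3 and 8.

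The lines did not differ steadily within batches. The share of members higher in Fert+ was 69.5% in batch 1 (3 against 2 libraries), 53.7% in batch 2 (1 against 1), 44.1% in batch 3 (2 against 2) and 52.5% in batch 4 (2 against 1), against 51.4%, 57.1%, 50.1% and 48.4% of all IDs. The members' share of counts averaged 4.94% ± 2.57 (SD, n = 8) for Fert+ libraries. For Fert- it was 3.69% ± 0.999 (SD, n = 6), a difference of 1.25 percentage points that fell to 0.391 without Fert+ replicate 1 and to 0.204 without group E. The medians were 4.17% and 4.10%.

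**Figure D5:**
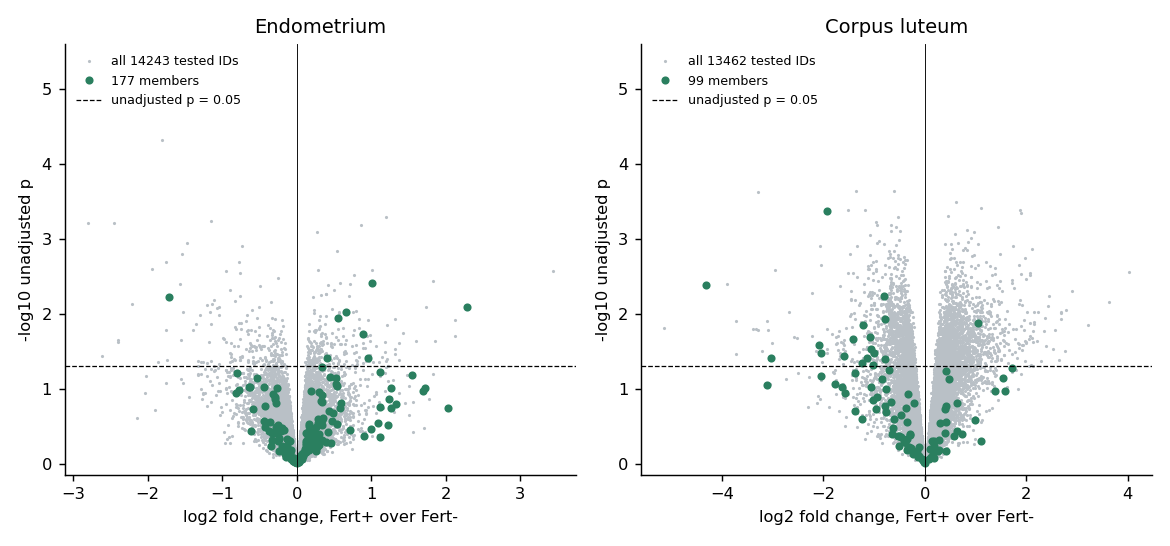
Points are gene IDs placed by the log2 fold change of Fert+ over Fert- and by -log10 of the unadjusted edgeR p, for all tested IDs in grey and members in green; the dashed line is an unadjusted p of 0.05. In endometrium 8 of 177 members (4.52%) lie above the line, against 3.00% of all tested IDs. In corpus luteum 18 of 99 (18.2%) do, against 21.1%.

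The same comparison in corpus luteum rests on the trace levels there. The filter on low counts was passed by 99 members, so the counts that follow describe those 99 and not the whole list. Of the 99, 0 passed the edgeR threshold, as did 0 of all 13462 IDs (0%), and 18 (18.2%) lay at an unadjusted p under 0.05, against 21.1% of all IDs. Without Fert- replicate 28 the member count was 8 of 101, and the count over all IDs 2801 of 13680. The count over all IDs was 1104 of 13682 without Fert- replicate 17 and 1105 of 13337 without Fert+ replicate 19, with 14 and 13 members. Of the 18, 17 were lower and 1 higher in Fert+, where over all IDs 9.01% were lower and 12.1% higher. Estimates were lower in Fert+ for 68 of the 99 members (68.7%) and higher for 31 (31.3%), against 47.1% and 52.9% of all IDs. Their median log2 fold change was -0.35. It was -0.09 in limma-voom, with 39 of 99 higher, and -0.15 without Fert- replicate 28, with 43 of 101 higher. Without Fert+ replicate 19 it was -0.11, with 33 of 88 higher, and without batch in the model -0.58, with 25 of 99 higher. The absolute log2 fold change was above 1 for 30 of the 99 members (30.3%), against 4.55% of all IDs. No member separated the lines completely (0 in either direction, against 2.57% of all IDs higher and 0.267% lower in Fert+). Within batches 1, 2 and 3, 29.3%, 28.3% and 51.5% of the 99 were higher in Fert+, so the direction was absent in batch 3. Batch 4 held Fert+ libraries alone.

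ENSBTAG00000019633 had the smallest luteal p, with 0.158, 0.611 and 2.60 CPM (lowest, median and highest) in Fert+ and 0.717, 1.26 and 14.5 CPM in Fert- (log2 fold change -1.92, SE 0.38, edgeR adjusted p = 0.212). ENSBTAG00000010433 was at 0.112, 0.553 and 4.49 CPM in Fert+ and at 0.391, 10.2 and 49.0 CPM in Fert- (log2 fold change -4.32, SE 1.18, edgeR adjusted p = 0.212). In endometrium it averaged 395 CPM in Fert+ and 650 CPM in Fert-. Estimated higher in Fert+ were ENSBTAG00000007125 (0.957, 1.92 and 3.78 against 0.335, 0.836 and 1.17 CPM, log2 fold change 1.05, SE 0.35, edgeR adjusted p = 0.212) and ENSBTAG00000048268 of group E (1.66, 4.64 and 22.9 against 1.19, 2.03 and 5.61 CPM, log2 fold change 1.71, SE 0.78, edgeR adjusted p = 0.242). Each pair of ranges overlapped. With parity added to the model the edgeR adjusted p of ENSBTAG00000019633 was 0.0200, where 6 of 99 members and 4004 of 13462 IDs were called. In that model line cannot be told from parity in batch 1, where Fert+ had parity 2 and Fert- parity 4. Batch 4 held Fert+ alone, and only Fert+ replicate 23 had parity 4 in batch 3. The line estimate there thus rests on Fert+ replicates 16 and 19 against Fert- replicates 17, 25 and 27. Without Fert+ replicate 23 its edgeR adjusted p was 0.0387, where 2 of 94 members and 908 of 13412 IDs were called. Without batch in the model, where 5 of 99 members and 1191 of 13462 IDs were called, the edgeR adjusted p of ENSBTAG00000010433 was 0.0475. Its log2 fold change was -2.50 without Fert- replicate 25. That of ENSBTAG00000048268 was 0.72 without Fert+ replicate 21, and that of ENSBTAG00000007125 was 0.66 without Fert+ replicates 15, 16, 18 and 19.

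In corpus luteum 10 of the 12 members of group E were estimated higher in Fert+ (median log2 fold change 0.86), while the medians of the other 5 groups lay between -0.87 and -0.12. This rested on single libraries: without Fert+ replicate 21 it was 5 of 11 with a median of -0.20. With parity in the model, where line was estimated from batches 2 and 3 only, it was 5 of 12 with a median of -0.21. Without Fert+ replicates 15, 16, 18 and 19, which stood apart from the other luteal libraries in an earlier look at these data, it was 11 of 12. The members' share of luteal counts averaged 0.0678% ± 0.0385 (SD, n = 7) for Fert+ libraries. For Fert- it was 0.0822% ± 0.050 (SD, n = 5), a difference of -0.0144 that became 0.00553 without Fert- replicate 17.

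Batch and parity were tested on the endometrium members as further labels. For batch, edgeR called 0 members at an adjusted p under 0.05 (0.0562% of all IDs, 8 in number), and 39 members (22.03%) lay at an unadjusted p under 0.05, against 13.2% of all IDs. DESeq2 called 15 members, with 820 of 14208 IDs in all, and limma-voom 3, with 55 of 14243. For parity, with batch and line in the model, edgeR called 0 members (0% of all IDs), and 14 members (7.91%) lay at an unadjusted p under 0.05, against 7.01% of all IDs. The count of 14 was 36, 34 and 36 without Fert- replicates 6 and 8 and Fert+ replicate 12, with 1472, 1390 and 1405 IDs in all. It was 43 without batch in the model (1562 in all), 6 without Fert+ replicate 10 (740 in all) and 6 in limma-voom (583 in all). The median share of counts in the members was 2.86%, 4.03%, 4.15% and 4.64% in endometrium batches 1 to 4, with 5, 2, 4 and 3 libraries, and 4.52%, 4.504% and 3.61% at parity 2, 3 and 4.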

How the data were processed

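Per the labels' protocols, biopsies were snap-frozen, extracted with TRIzol and prepared with an Illumina TruSeq RNA kit, which keeps no strand information, from polyadenylated RNA. Named in the submitters' processing notes are STAR 2.3.0, featureCounts, the build UMD3.1, Trim Galore, FastQC 0.10.0 and CASAVA 1.9. On annotation and multiply mapped reads, nothing is given in the sources used here. The deposited files hold raw read counts per gene ID, used unchanged. Library totals ran from 9627378 to 18008417, and 95% Wilson intervals of member shares were at most ± 0.0185 percentage points, for counting error only.

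Members were selected on CPM. Each tissue was fitted alone in edgeR 4.0.16 (R 4.3.3; filterByExpr, TMM, robust quasi-likelihood, batch and line) over all IDs, with Benjamini-Hochberg adjustment and a threshold of 0.05. The fit was tested on simulated data. Alternatives used DESeq2 1.42.0 and limma 3.58.1 with voom, other filters, scalings and covariates, and each library left out. The members and lists were chosen with earlier results of these data known. Named IDs were the extremes of level, ratio, CV and r, those next to a threshold, and the 2 smallest p per direction and tissue; leading IDs of groups were chosen after their values were seen. Fixed symbol lists were not analysed here, as 0 IDs had symbols.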

Additional observations from a re-analysis of the deposited data

Results flagged for a closer look

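Listed here are libraries whose distance from the next value in their group exceeded Dixon's 95% limit as a fraction of the spread from lowest to highest. For normally distributed values that were not selected, chance gives this in about 1 of 20 groups, or 4.2 of the 84 groups of values examined. Here 22 were found, many of them in IDs that vary together and so are not independent. Many of the values examined are CPM of IDs named as extremes of these same data. The figure of 4.2 is therefore not a fair reference, and the list is a description only.

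Fert+ endometrium replicate 1 had 9 of them. The members took 10.98% of its counts (next 5.47%) and group E took 7.01% (next 1.94%). ENSBTAG00000031160 was at 51974 CPM (next 11663), ENSBTAG00000018531 at 6246 (next 2831), ENSBTAG00000039237 at 1727 (next 169), ENSBTAG00000047177 at 1836 (next 287), ENSBTAG00000046161 at 1482 (next 274), ENSBTAG00000048268 at 1665 (next 178) and ENSBTAG00000008182 at 5103 (next 793).

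Among Fert- endometrium libraries, replicate 8 was high in group E (1.34% of counts, next 0.420%), in ENSBTAG00000031160 (9911 CPM, next 2707), in ENSBTAG00000046161 (195 CPM, next 70.8) and in ENSBTAG00000048268 (218 CPM, next 78.8). Replicate 3 was high in ENSBTAG00000004322 (4527 CPM, next 1540) and ENSBTAG00000008182 (1812 CPM, next 357). Replicate 9 was high in ENSBTAG00000039237 (119 CPM, next 46.6) and replicate 14 in ENSBTAG00000008097 (142 CPM, next 69.0).

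Among Fert+ libraries, replicate 10 was high in ENSBTAG00000012461 (125 CPM, next 41.1), ENSBTAG00000020119 (67.2 CPM, next 36.2) and ENSBTAG00000008452 (147 CPM, next 76.7). Replicate 7 was high in ENSBTAG00000040082 (340 CPM, next 191) and ENSBTAG00000011818 (126 CPM, next 43.4).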

How the results depend on the processing

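In endometrium, 0 members were called for line or parity under every alternative run, where few or 0 of all IDs were called. For line, DESeq2 called 8 of 14208 IDs, and edgeR 1 of 14301 without Fert- replicate 8. For parity, DESeq2 called 58 of 13690 IDs. For parity edgeR called 4 of 14301 without Fert- replicate 8 and 5 of 14206 without Fert+ replicate 12. For batch the count of members was 15 with DESeq2 (of 820 calls in all), 3 with limma-voom (of 55) and 0 (lowest and highest) with single libraries left out. In corpus luteum the count for line was 5 without batch in the model (of 1191 calls in all), 6 with batch and parity (of 4004) and 0 to 2 with single libraries left out, the 2 being without Fert+ replicate 23 (of 908). DESeq2 called 0 members there but gave an adjusted p to only 5. The luteal fit with batch and parity took its line estimate from batches 2 and 3 only. The number of members was 62 at a ratio of at least 100, 77 at a mean of at least 100 CPM and 300, the limit, at a mean of at least 10 CPM. It ran from 172 to 195 with single libraries left out. The difference in members' share between lines was -0.856 within endometrium batch 2, and ran from 0.391 to 1.55 with single libraries left out. In corpus luteum it was -0.105 within batch 2 and 0.0329 within batch 3, and ran from -0.0270 to 0.00553. The ratio of median CV was 2.39 from edgeR's biological coefficient of variation and 3.12 within Fert- libraries, and ran from 2.65 to 2.95 with single libraries left out. The median r was 0.11 with batch means subtracted and ran from 0.15 to 0.22. The causes were not tested. Leaving out the 4 Fert+ luteal libraries and leaving out group E were chosen after seeing the data, as were the settings for its size. No paired analysis was made, because the labels do not state which libraries of the tissues came from the same cow. Replicate numbers run on from endometrium to corpus luteum, so they do not settle this. Trace luteal counts limit what can be seen in corpus luteum: 78 members were not tested there.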
